A study of Mus musculus with 12 samples.

Results

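Messenger RNA of the proteasome was followed through 4 states of mouse embryonic stem cells. The genes were taken as the protein-coding rows of the deposited table whose symbol begins with Psma, Psmb, Psmc, Psmd, Psme, Psmf or Psmg followed by a number, without Psmc3ip, a recombination factor named after a proteasome gene. This gave 49 of the 54555 rows of the table, 22058 of which are protein-coding. Of the 49 genes, 31 encode the constitutive particle, namely 7 alpha and 7 beta subunits of the core and 6 ATPases and 11 other subunits of the cap. The other genes encode 5 immune or tissue-specific subunits, 6 activators and inhibitors, and 7 assembly factors.

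The cells were R1, an established mouse embryonic stem cell (mESC) line, grown on gelatin with leukemia inhibitory factor (LIF), and each state had 3 RNA sequencing libraries. The group mESC_control held undifferentiated cells, and mESC_OGTi held the same cells after 48 h with 25 µM Ac45SGlcNAc, an inhibitor of O-GlcNAc transferase (OGT), the enzyme that places N-acetylglucosamine on nuclear and cytoplasmic proteins. The group RA_control held cells pre-treated with DMSO and then kept for 48 h without LIF in 1 µM retinoic acid (RA). The group RA_OGTi received the inhibitor, at 25 µM for 48 h, as pre-treatment and then the same RA step. The labels leave out if the inhibitor stayed in the medium with RA. RA and the loss of LIF came together and cannot be told apart. What the replicate numbers stand for is not stated either, so all p-values rest on library-to-library spread, possibly a technical one.

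The proteasome degrades proteins that carry ubiquitin chains. Its core is a barrel of alpha and beta rings, and the beta subunits Psmb5, Psmb6 and Psmb7 hold the cutting sites inside it. The cap binds the substrate, removes ubiquitin, unfolds the chain with a ring of ATPases and feeds it into the barrel. Immune cells and cells exposed to interferon exchange the cutting subunits for Psmb8, Psmb9 and Psmb10, which shifts the peptides made for antigen presentation. Dedicated chaperones guide the assembly of the alpha ring and of the ATPase ring. Human embryonic stem cells are known for high proteasome activity, which declines on differentiation. The cells here were mouse cells, and the data hold messenger RNA, not activity.

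Expression is given as FPKM, fragments scaled by gene length and library size, so comparisons between genes rest on the deposited gene lengths. The libraries held 15553627 to 17833464 fragments assigned to genes, and a tested proteasome gene had between 7 and 11886 fragments in a library, with a median of 2306.5. Stem cell markers separated the states: the summed FPKM of 8 such genes was 2006 to 2054 in the mESC libraries and 294.1 to 384.6 after RA. The summed FPKM of 10 genes induced by RA went the other way, from 50.8 to 63.0 in mESC libraries to 827 to 1136 after RA. The summed FPKM of 7 fibroblast or feeder markers was 9.8 to 11.4 in mESC libraries and 11.2 to 13.99 after RA. Thy1 gave most of it, with group means of 6.69 to 9.96 FPKM, and Col1a1 stood at 1.02 in mESC_control and 4.60 in RA_control. Dcn was at 0 in every group mean, and the part of these markers in the results was not tested. In bulk RNA, fewer cells of a type and less RNA per cell cannot be told apart.

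In undifferentiated cells the 31 constitutive genes spanned a 9.41-fold range of mean FPKM, although their products occur in equal numbers in the particle. The lowest mean in mESC_control was that of the ATPase gene Psmc6 at 28.3 ± 1.8 FPKM (SD, n = 3), and the highest that of the core gene Psmb1 at 267 ± 8.0 FPKM. Their deposited lengths were 3498 and 1036 bases, and in mESC_control replicate 1 they had 1448 and 4237 fragments. How well these lengths match the transcripts present was not tested. The range widened to 14.2-fold in RA_control, between Psmd6 at 17.4 ± 0.83 and Psmb1 at 248 ± 39 FPKM. Psmb1 was highest in all 4 groups, and Psma3, Psmb7 and Psmd2 kept their place as the lowest alpha, the lowest beta and the highest non-ATPase gene. All 49 genes together took 0.796% ± 0.011 (SD, n = 3) of the assigned fragments in mESC_control, 0.767% ± 0.00103 in mESC_OGTi, 0.643% ± 0.019 in RA_control and 0.688% ± 0.0218 in RA_OGTi. The shares of the RA-treated libraries, at 0.629% to 0.709%, lay below every share of the mESC libraries, at 0.766% to 0.808%.

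Promoters are shown because most constitutive genes fell together with RA, as described further on. RefSeq windows on GRCm38.p6, from 250 bases before to 50 bases after the start, were found for 41 of the 49 genes. Of 6 motifs searched on both strands, the ETS-type motif CCGGAAG, the core of sites bound by ETS-family factors, was in 14 of the 41 (34.1%), against 19.7% of 9896 tested genes and 9.9% of all 27025 windows. Of the 41 genes 32 were lower after RA, and these held all 14, among them Psma6, Psmc1, Psmc2, Psmd6, Psmd11, Psmd12, Psmd13 and Psmg1. The 14 also included Psmc6, Psmd2 and Psme4, whose calls were lost with other scalings of the libraries, described further on. The share lower after RA among all tested genes with this motif was not computed. The antioxidant-type motif TGACNNNGC, of the kind bound by Nfe2l1 and Nfe2l2, was in 14.6% of the proteasome windows and 16.9% of the tested genes' windows. It occurred in Psmb5, Psmb6, Psmc6, Psmd9, Psmd12 and Psme4. The motifs may overlap one another, and a match describes letters, not a bound site.

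CCAAT was in 34.1% of the proteasome windows and 43.4% of tested windows, and the GC box GGGCGG in 56.1% and 70.5%. The nuclear respiratory factor motif was in 9.8% and 7.8%. The interferon-type motif was in 12.2% and 3.2%, in Psmb3, Psmd4, Psmd9, Psme1 and Psmg4. Of the proteasome genes with each motif, those lower after RA were 4 of 4 for the nuclear respiratory factor motif and 11 of 14 for CCAAT. They were 17 of 23 for the GC box, 4 of 6 for the antioxidant-type motif and 3 of 5 for the interferon-type motif. Of all 41 proteasome genes with a window, with or without a motif, 32 were lower. The shares lower after RA among all tested genes with each motif were not computed.

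The 120 bases before the start of 5 genes are printed 5′ to 3′ on the gene's strand from RefSeq (GRCm38.p6), with the motif in capitals. Psmd2 (chr16:20651532-20651651), Psmd11 (chr11:80428495-80428614), Psme3 (chr11:101316093-101316212) and Psmg1 (chr16:95990961-95991080, minus strand) hold the ETS-type motif, a scaffold and a further subunit of the cap, an activator and an assembly factor that were all lower after RA. The call of Psmd2 was lost with other scalings of the libraries. Psmb6 (chr11:70525237-70525356) holds the antioxidant-type motif and is 1 of the constitutive genes that did not pass the test with RA.
Psmd2: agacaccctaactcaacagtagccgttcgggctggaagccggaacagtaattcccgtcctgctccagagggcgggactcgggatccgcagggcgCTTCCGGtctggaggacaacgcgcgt
Psmd11: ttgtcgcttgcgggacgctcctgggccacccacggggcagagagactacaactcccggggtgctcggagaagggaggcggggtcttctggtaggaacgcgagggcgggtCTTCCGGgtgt
Psme3: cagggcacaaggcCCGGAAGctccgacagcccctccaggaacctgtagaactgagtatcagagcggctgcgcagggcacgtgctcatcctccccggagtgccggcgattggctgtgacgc
Psmg1: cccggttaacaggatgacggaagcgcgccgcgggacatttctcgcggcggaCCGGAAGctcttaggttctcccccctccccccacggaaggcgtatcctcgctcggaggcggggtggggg
Psmb6: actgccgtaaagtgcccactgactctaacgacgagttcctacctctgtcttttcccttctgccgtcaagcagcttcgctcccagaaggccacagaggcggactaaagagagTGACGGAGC
The motif lay at positions -26 to -20 from the start in Psmd2, -11 to -5 in Psmd11, -107 to -101 in Psme3, -69 to -63 in Psmg1 and -9 to -1 in Psmb6. In Psmd2 and Psmd11 the capitals are its reverse complement. Psme3 holds a second copy at 2 to 8, after the start, on the other strand and outside the printed stretch.

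Most proteasome genes were lower after RA. Tests compared log2(FPKM + 1) with limma over 14866 genes, those with 3 or more libraries at 1 FPKM or above, and a gene was called where its Benjamini-Hochberg adjusted p over all tested genes was under 0.05. Of the 49 genes 46 were tested, and 39 were lower and 3 higher in RA_control than in mESC_control. Among all tested genes 37.2% were called lower and 33.7% higher, and among genes with a mean of 5 FPKM or more 49.9% were lower. The median change was -0.56 on the log2 scale for the 46 genes and -0.035 for all tested genes. Of the 31 constitutive genes 29 were lower and 0 higher with limma. At an unadjusted p under 0.05 these numbers were 30 and 0, and limma-voom likewise called 30 lower and 0 higher. The remaining pair, Psmb1 and Psmb6, differed by -0.12 (adjusted p = 0.281) and -0.18 (adjusted p = 0.0529). Without RA_control replicate 3 both were called lower, at -0.23 (adjusted p = 0.00957) and -0.24 (adjusted p = 0.0234), and Psmb6 was also called lower with limma-voom, the stricter filter, the replicate block (adjusted p = 0.025) and the groups compared only. Of the 3 higher genes 1 was left without mESC_control replicate 1, mESC_control replicate 3 or RA_control replicate 2.

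Scaling bears on these counts. The deposited values carry a scaling close to median-of-ratios size factors, and dividing by total fragments or converting to TPM shifted the all-gene median from -0.035 to 0.15 and 0.18. Under each of these 31 proteasome genes were lower and 4 higher. Of all tested genes 26% were then lower and 44.5% higher with total fragments, and 25.3% and 44.2% with TPM. The median of the 46 genes relative to all genes was -0.52 as deposited, -0.48 with total fragments and -0.50 with TPM. The 8 calls lost or turned were those of Psma4, Psmb5, Psmc6, Psmd2, Psmd3, Psmd5, Psmd8 and Psme4, while 31 genes were lower under every alternative run.

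**Figure D1:**
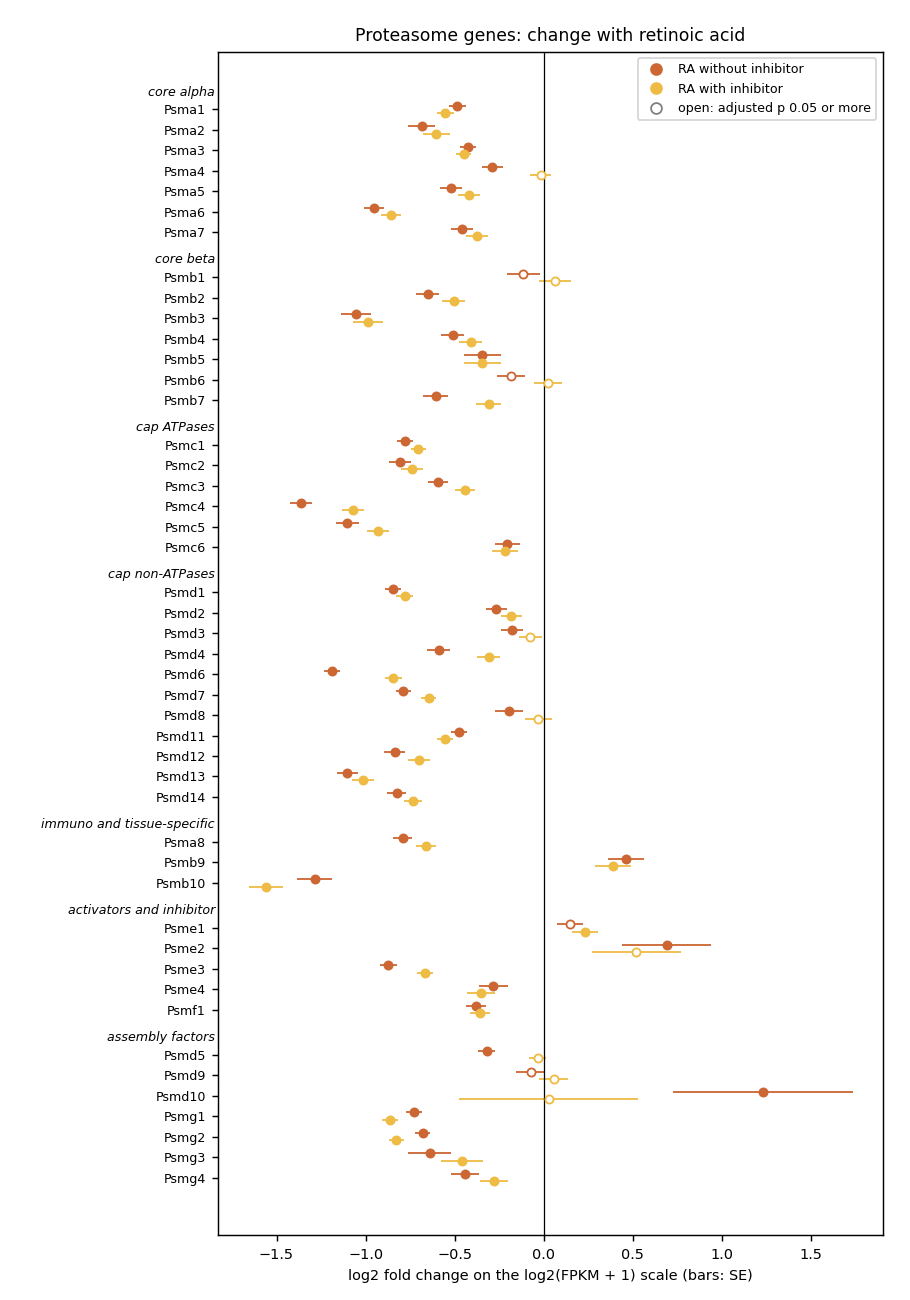
Change with RA for the 46 tested proteasome genes, grouped by role, on the log2(FPKM + 1) scale (x axis; points are limma estimates from 3 libraries a group and bars their SE; filled points have an adjusted p under 0.05). Most points lie left of 0 both without and with the inhibitor, from -1.37 for Psmc4 to 1.23 for Psmd10 without it.

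The alpha subunits, which form the outer rings and the gate of the barrel, were lower in 7 of 7 cases, with a median change of -0.49. Their summed FPKM was 597 to 626 in mESC_control and 385 to 430.0 in RA_control, so the groups lay apart. Psma6 was at 160.2, 175 and 174 FPKM in mESC_control, 154, 160.1 and 154 in mESC_OGTi, 82.5, 85.1 and 94.1 in RA_control, and 85.7, 82.8 and 88.4 in RA_OGTi, a change with RA of -0.95 (SE 0.057, adjusted p = 3.86e-08), the furthest of the alpha genes. The smallest was that of Psma4, at -0.29 (adjusted p = 0.00088). Psma7 was at 87.2, 90.3 and 88.2 FPKM in mESC_control, 86.7, 93.3 and 95.2 in mESC_OGTi, 63.9, 58.8 and 70.0 in RA_control, and 71.7, 67.9 and 71.7 in RA_OGTi. Psma7 was lower after RA in every library, with a change of -0.46 (SE 0.061, adjusted p = 3.32e-05).

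Of the 7 beta genes 5 were lower, with a median of -0.51. Summed FPKM of the beta genes was 1061 to 1098 in mESC_control and 736 to 918 in RA_control. Psmb3 was at 130.2, 136 and 130.5 FPKM in mESC_control, 117, 125 and 128 in mESC_OGTi, 67.3, 55.2 and 67.7 in RA_control, and 63.6, 55.5 and 66.1 in RA_OGTi. This non-catalytic subunit had the largest fall of the ring, at -1.05 (SE 0.083, adjusted p = 4.06e-07), and no RA-treated library reached the mESC levels. The 3 genes of the cutting sites follow. Psmb5 was at 138, 137 and 142 FPKM in mESC_control, 147, 150.3 and 163 in mESC_OGTi, 116, 92 and 122 in RA_control, and 129.5, 105 and 129 in RA_OGTi. Psmb5, of the chymotrypsin-like site, fell by 0.35 (SE 0.10, adjusted p = 0.0106), with RA_control replicate 2 the lowest of all. Psmb7 was at 52.4, 58 and 50.4 FPKM in mESC_control, 49.6, 52.6 and 52.6 in mESC_OGTi, 33.4, 32.7 and 38.4 in RA_control, and 41.3, 39.1 and 44 in RA_OGTi. Psmb7, of the trypsin-like site, fell by 0.61 (SE 0.071, adjusted p = 1.17e-05), and its groups without inhibitor did not overlap. Psmb6 was at 169, 176 and 177 FPKM in mESC_control, 162, 177 and 181 in mESC_OGTi, 154, 141 and 165 in RA_control, and 179, 159 and 191 in RA_OGTi. The RA_control values of Psmb6, of the caspase-like site, lay below those of mESC_control, and its RA_OGTi values overlapped the mESC range.

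**Figure D2:**
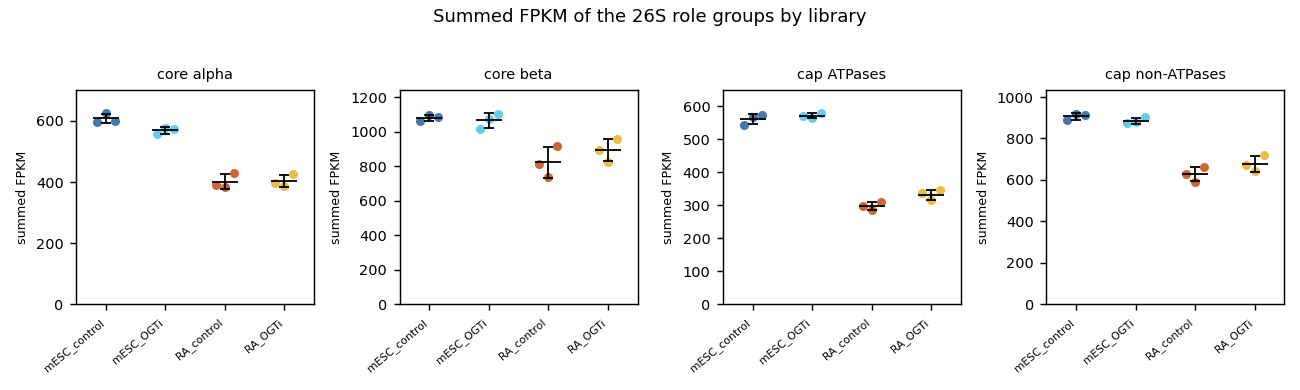
Summed FPKM of the alpha, beta, ATPase and non-ATPase genes in each of the 12 libraries (points), with the group mean and SD (bars), y axes from 0. In all 4 panels the RA_control libraries lie below the mESC_control libraries, for the ATPases at 286.3 to 309 against 543 to 575.

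The ATPase genes, whose products form the ring that unfolds substrates, were lower in 6 of 6 cases, with a median of -0.79. Their summed FPKM was 543 to 575 in mESC_control and 286.3 to 309 in RA_control. Psmc4 was at 108, 110.3 and 115 FPKM in mESC_control, 119, 116 and 118 in mESC_OGTi, 42.7, 40.5 and 44.3 in RA_control, and 57.3, 49.8 and 59.2 in RA_OGTi. Psmc4 changed by -1.37 (SE 0.062, adjusted p = 4.2e-09), with the 3 RA_control libraries close together and far under the mESC range. Psmc5 was at 164, 167 and 179.6 FPKM in mESC_control, 178, 180.0 and 189 in mESC_OGTi, 80.8, 72.1 and 83.9 in RA_control, and 96.8, 90.2 and 98.4 in RA_OGTi. Psmc5 changed by -1.10 (SE 0.063, adjusted p = 2.65e-08). Psmc1 was at 131, 139 and 133 FPKM in mESC_control, 136, 126 and 135 in mESC_OGTi, 77.4, 76.6 and 79.5 in RA_control, and 80.6, 79 and 83 in RA_OGTi. Psmc1 changed by -0.78 (SE 0.043, adjusted p = 2.16e-08), near the median of the ring. Psmc6 changed least, by -0.20 (adjusted p = 0.0213), and its values in the mESC_control and RA_control libraries overlapped.

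Of the non-ATPase genes of the cap 11 of 11 were lower, with a median of -0.79. Psmd6 was at 41, 39.9 and 42.1 FPKM in mESC_control, 38.1, 35.3 and 35.1 in mESC_OGTi, 16.5, 18 and 17.7 in RA_control, and 19.5, 19.7 and 19.9 in RA_OGTi. Psmd6, a subunit of the lid, changed by -1.19 (SE 0.047, adjusted p = 1.54e-09), the furthest of this set. Psmd13 was at 70.9, 70.6 and 74.2 FPKM in mESC_control, 64, 63.7 and 68.5 in mESC_OGTi, 32.2, 30.7 and 36.1 in RA_control, and 32, 30.3 and 33.2 in RA_OGTi. Psmd13, another lid subunit, changed by -1.10 (SE 0.060, adjusted p = 1.99e-08), with no overlap of the states. The lid's deubiquitinating enzyme Psmd14 changed by -0.83 (adjusted p = 5.09e-08) and the ubiquitin receptor Psmd4 by -0.59 (adjusted p = 6.04e-06). Of the scaffold subunits, Psmd1 changed by -0.85 (adjusted p = 1.7e-08) and Psmd2 by -0.27 (adjusted p = 0.00158). The smallest changes were those of Psmd3, at -0.18 (adjusted p = 0.0244), and Psmd8, at -0.20 (adjusted p = 0.0397). Psmc6, Psmd3 and Psmd8 turned slightly positive after total-fragment or TPM scaling.

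**Figure D3:**
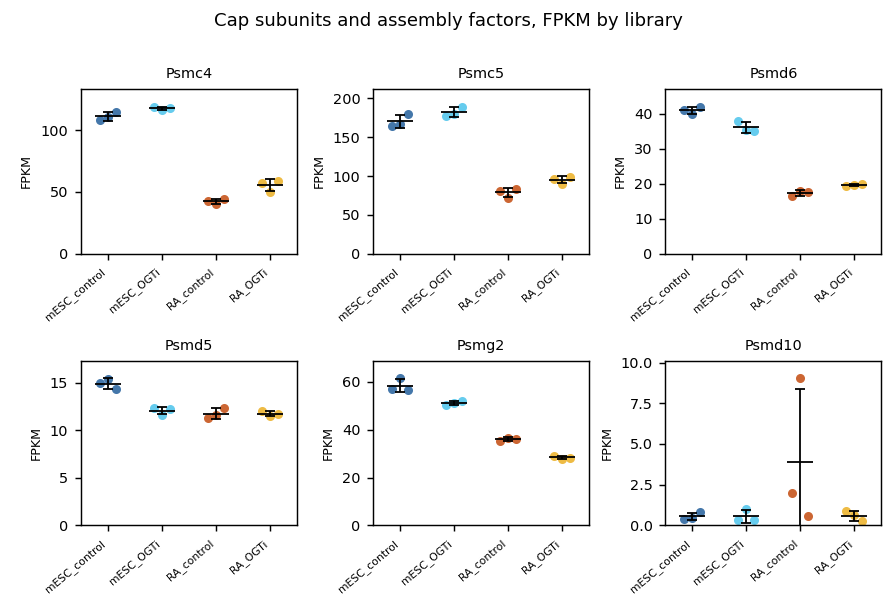
FPKM of 2 ATPase genes (Psmc4, Psmc5), a lid gene (Psmd6) and 3 assembly factors (Psmd5, Psmg2, Psmd10) in the 12 libraries (points), with the group mean and SD (bars; the lower bar of Psmd10 in RA_control is clipped at 0). With the inhibitor after RA Psmc4 was higher and Psmg2 lower, and the mean of Psmd10 in RA_control rests on 1 library at 9.04 FPKM.

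Within a group the constitutive genes were often lowest or highest in the same library. RA_control replicate 2 was the lowest of its group for 22 of the 31 genes and RA_OGTi replicate 2 for 25, and the replicates 3 were the highest for 25 genes in both groups. In the mESC groups the replicates 1 were lowest for 18 and 19 of the 31. In each group the library that was most often lowest also had the lowest ratio of assigned fragments to the library size that the deposited scaling implies: 1.06 in both mESC groups, 0.883 in RA_control and 0.891 in RA_OGTi. The part of this ratio in the results was not tested beyond the scaling alternatives.

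The immune subunits moved in different directions with RA. Psmb10 was at 13.6, 13.8 and 15.3 FPKM in mESC_control, 13.6, 15.6 and 14.8 in mESC_OGTi, 5.94, 4.24 and 5.7 in RA_control, and 4.18, 4.17 and 4.61 in RA_OGTi. Psmb10, which replaces Psmb7, changed by -1.29 (SE 0.098, adjusted p = 2.98e-07), and its RA-treated libraries were all under the lowest mESC library. Psmb9 was at 2.69, 3.16 and 2.32 FPKM in mESC_control, 2.75, 3.08 and 3.5 in mESC_OGTi, 4.31, 3.73 and 4.31 in RA_control, and 4.02, 4.19 and 4.92 in RA_OGTi. Psmb9, which replaces Psmb6, changed in the other direction, by 0.46 (SE 0.10, adjusted p = 0.00152), with every RA-treated library above every mESC library. Psmb8 was at 0.116, 0.0486 and 0.092 FPKM in mESC_control, 0.0708, 0.0748 and 0.0703 in mESC_OGTi, 0.195, 0.411 and 0.379 in RA_control, and 0.425, 0.313 and 0.313 in RA_OGTi, and it was not tested. For Psmb8, which replaces Psmb5, these values rest on 2 to 5 fragments a library in the mESC groups and 9 to 23 after RA.

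Relative to their counterparts, Psmb10 was at 26.8% ± 3.3 (SD, n = 3) of the FPKM of Psmb7 in mESC_control, 28.5% ± 1.1 in mESC_OGTi, 15.2% ± 2.4 in RA_control and 10.4% ± 0.284 in RA_OGTi. Psmb9 was at 1.57% ± 0.244 of Psmb6 in mESC_control, 1.79% ± 0.124 in mESC_OGTi, 2.68% ± 0.0964 in RA_control and 2.49% ± 0.212 in RA_OGTi. In all 3 exchanges together, the immune forms stood at 4.65% ± 0.121 of the constitutive forms in mESC_control and 3.26% ± 0.152 in RA_control. Psmb11, the form of thymic epithelium, had between 0 and 3 fragments in a library. Psmb9 and Tap1 overlap on opposite strands over 5.8% of the exon bases of Psmb9, and without a stated strand setting those reads cannot be told apart.

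Psma8 was at 14.5, 14.3 and 13.9 FPKM in mESC_control, 11.9, 12.1 and 12.3 in mESC_OGTi, 8.01, 7.65 and 7.71 in RA_control, and 7.22, 7.93 and 6.72 in RA_OGTi. This gene encodes the alpha subunit of the germline proteasome that replaces Psma7 in spermatocytes. It was at 16.1% ± 0.444 (SD, n = 3) of Psma7 in mESC_control, 13.2% ± 0.437 in mESC_OGTi, 12.2% ± 1.04 in RA_control and 10.4% ± 1.18 in RA_OGTi. With RA it changed by -0.79 (SE 0.054, adjusted p = 1.09e-07), and the states did not overlap.

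Genes of antigen presentation and interferon signalling, in which the immune subunits act, were higher after RA in 9 and lower in 2 of 12 tested, against 33.7% and 37.2% of all tested genes, with a median of 0.78. The class I heavy chains H2-K1 and H2-D1 changed by 2.54 and 1.65 and their light chain B2m by 1.41 (adjusted p = 1.93e-10, 6.81e-10 and 3.47e-09). The summed FPKM of 8 immune cell markers was 56.7 to 61.9 in mESC_control and 34.0 to 39.4 in RA_control, and 4 of the 8 were under 1 FPKM in each group. The leukocyte marker Ptprc was at 0 in the RA_control mean. Laptm5 was at a mean of 40.4 FPKM in mESC_control and 9.73 in RA_control, and Cd74 at 7.19 and 14.2.

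**Figure D4:**
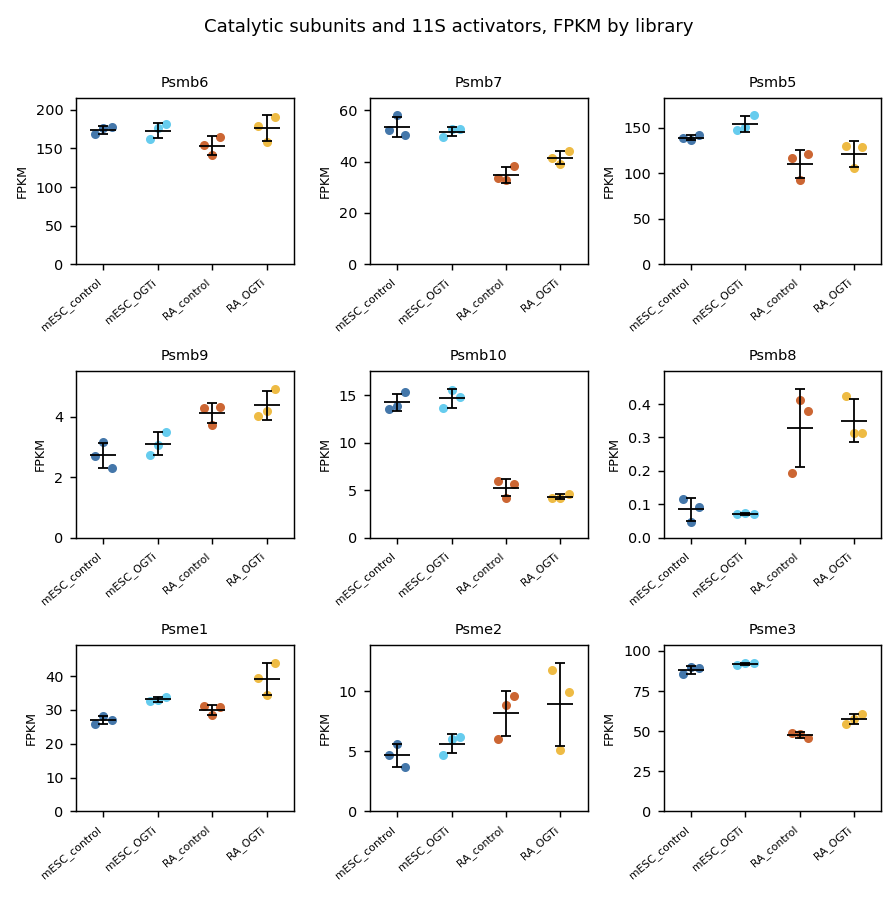
FPKM of the cutting subunits (Psmb6, Psmb7, Psmb5), their immune counterparts (Psmb9, Psmb10, Psmb8) and 3 activators (Psme1, Psme2, Psme3) in the 12 libraries (points), with the group mean and SD (bars), y axes from 0. Psmb10 and Psme3 are lower and Psmb9 is higher in the RA-treated libraries than in all mESC libraries, while Psme1 is higher with the inhibitor in both states.

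The activators, which open the barrel without the cap, divided. Psme3 was at 85.3, 90.0 and 89.1 FPKM in mESC_control, 91.2, 92.5 and 92.4 in mESC_OGTi, 48.9, 48.4 and 45.7 in RA_control, and 54.6, 57.8 and 60.6 in RA_OGTi. Psme3, which forms the nuclear activator ring, changed with RA by -0.87 (SE 0.047, adjusted p = 1.64e-08). Psme1 was at 26, 28.2 and 27.1 FPKM in mESC_control, 32.6, 33 and 33.9 in mESC_OGTi, 31, 28.4 and 30.8 in RA_control, and 39.3, 34.5 and 44 in RA_OGTi. Psme1, which forms the interferon-inducible ring with Psme2, differed by 0.15 (SE 0.074, adjusted p = 0.0976), so the level of Psme1 went from 30.7% ± 0.514 of Psme3 in mESC_control to 63.1% ± 4.4 in RA_control (SD, n = 3). Psme1 was called higher with RA after TPM scaling, at 0.39 (adjusted p = 7.67e-05), after total-fragment scaling, at 0.37 (adjusted p = 0.000181), and with the groups compared only (adjusted p = 0.0491). Psme2 was at 4.68, 5.58 and 3.71 FPKM in mESC_control, 4.72, 6.0 and 6.21 in mESC_OGTi, 6.05, 8.89 and 9.6 in RA_control, and 11.8, 5.09 and 9.91 in RA_OGTi. Psme2 was higher with RA by 0.69 (SE 0.25, adjusted p = 0.0263). That call was lost without mESC_control replicate 1 or 3 or RA_control replicate 2 or 3. Psme2b, a near-identical copy, had 0 fragments in all 12 libraries, where 0 allows up to 3 fragments each by counting error alone. How reads of the pair were divided is not known, so Psme2 is uncertain.

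Psme4 was at 19.1, 18.9 and 21.1 FPKM in mESC_control, 21.5, 19.2 and 18 in mESC_OGTi, 16.3, 17.1 and 14.7 in RA_control, and 15.6, 15.9 and 13.7 in RA_OGTi. Psme4, an activator of the nucleus known from histone degradation in spermatogenesis, changed by -0.28 (SE 0.080, adjusted p = 0.00768), a call absent after total-fragment or TPM scaling. Psmf1 was at 8.15, 8.2 and 8.34 FPKM in mESC_control, 7.56, 7.89 and 8.37 in mESC_OGTi, 6.12, 5.71 and 6.51 in RA_control, and 6.26, 5.71 and 5.92 in RA_OGTi. Psmf1, named as an inhibitor of the proteasome, changed by -0.38 (SE 0.056, adjusted p = 8.36e-05), and its RA-treated libraries were all lower than its mESC libraries.

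The assembly factors were lower in 5 and higher in 1 of 7 cases. Psmg1 was at 61.1, 65.9 and 61 FPKM in mESC_control, 63.3, 67.9 and 66 in mESC_OGTi, 37.2, 36.6 and 38.4 in RA_control, and 35.3, 36.6 and 35 in RA_OGTi. Psmg2 was at 57, 61.4 and 56.6 FPKM in mESC_control, 50.3, 51.2 and 52.1 in mESC_OGTi, 35.2, 36.6 and 36.3 in RA_control, and 28.9, 27.9 and 28.3 in RA_OGTi. Psmg1 and Psmg2 act as a pair on the alpha ring and changed alike with RA, by -0.73 (SE 0.045, adjusted p = 5.37e-08) and -0.68 (SE 0.042, adjusted p = 4.96e-08), with no overlap of the states. Psmg3 was at 4.15, 3.33 and 4.42 FPKM in mESC_control, 4.02, 3.68 and 2.7 in mESC_OGTi, 2.21, 1.91 and 2.42 in RA_control, and 2.1, 2.42 and 2.16 in RA_OGTi. Psmg4 was at 45.6, 46.1 and 50.2 FPKM in mESC_control, 45.7, 50.9 and 48.7 in mESC_OGTi, 31.8, 34.3 and 37.5 in RA_control, and 42.7, 35.5 and 41.5 in RA_OGTi. Psmg3 and Psmg4, the second pair on that ring, changed by -0.64 (SE 0.12, adjusted p = 0.00049) and -0.44 (SE 0.079, adjusted p = 0.000344), from means in mESC_control of 3.97 ± 0.57 and 47.3 ± 2.5 FPKM (SD, n = 3).

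Psmd5 was at 15, 15.4 and 14.3 FPKM in mESC_control, 12.3, 11.6 and 12.2 in mESC_OGTi, 11.3, 11.6 and 12.4 in RA_control, and 12, 11.5 and 11.7 in RA_OGTi. Psmd5, a chaperone of the ATPase ring, changed with RA by -0.32 (SE 0.048, adjusted p = 9.22e-05) and was highest in the mESC_control libraries. Psmd9 was at 5.36, 5.35 and 5.24 FPKM in mESC_control, 4.59, 5.87 and 4.93 in mESC_OGTi, 5.14, 4.5 and 5.4 in RA_control, and 5.44, 4.97 and 5.64 in RA_OGTi. Psmd9, a second chaperone of that ring, differed by -0.074 (adjusted p = 0.436), and its groups overlapped. Antisense exons cover 25.5% of its exon bases. Psmd10 was at 0.389, 0.452 and 0.814 FPKM in mESC_control, 0.352, 1.02 and 0.305 in mESC_OGTi, 2.02, 9.04 and 0.558 in RA_control, and 0.86, 0.619 and 0.255 in RA_OGTi. Psmd10, the oncoprotein gankyrin and another such chaperone, was called higher with RA by 1.23 (SE 0.50, adjusted p = 0.046). Its call rested on RA_control replicate 2, with 248 fragments against 15 and 50 in the other RA_control libraries, and without that library, or without RA_control replicate 1, Psmd10 no longer reached the level needed for testing. The call was also lost without any 1 of the mESC_control libraries, with limma-voom, without a filter and without the variance trend.

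Most proteasome genes were also lower after RA in inhibitor-treated cells. Between mESC_OGTi and RA_OGTi 35 of the 46 genes were lower and 2 higher, against 36.7% and 32% of all tested genes, with medians of -0.45 and -0.043. Of the constitutive genes 26 of 31 were lower. Psmb10 changed by -1.56 (SE 0.098, adjusted p = 6.31e-08), Psmc4 by -1.07 (SE 0.062, adjusted p = 3.08e-08), Psmd13 by -1.02 (SE 0.060, adjusted p = 4.09e-08) and Psmb3 by -0.99 (SE 0.083, adjusted p = 7.12e-07). Psmg1 and Psmg2 changed by -0.86 and -0.83, Psme3 by -0.67 and Psma8 by -0.66. Psmb9 and Psme1 were the 2 higher genes, by 0.39 (SE 0.10, adjusted p = 0.00485) and 0.23 (SE 0.074, adjusted p = 0.0155). The Psme1 call was lost without RA_OGTi replicate 3, which left 1 gene higher. Psmb6 differed by 0.023 (adjusted p = 0.808) and Psmd5 by -0.034 (adjusted p = 0.554). Both were called higher after TPM or total-fragment scaling, Psmb6 at 0.30 (adjusted p = 0.000124) and 0.28 (adjusted p = 0.00107), and Psmd5 at 0.23 (adjusted p = 0.00298) and 0.21 (adjusted p = 0.00285). With total-fragment scaling the counts were 27 lower and 10 higher, and with TPM 27 and 11, so the share of higher genes among the calls depended on the scaling. Of all tested genes 24% were then lower and 44.9% higher with total fragments, and 23% and 45.1% with TPM. The 2 RA comparisons share no library, but each shares its groups with the tests of the inhibitor.

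In undifferentiated cells few proteasome genes differed with the inhibitor. Between mESC_control and mESC_OGTi 1 of 46 was higher and 6 were lower, against 4.6% and 3.18% of all tested genes, with medians of -0.036 and 0.0053. TPM scaling gave 1 and 1, against 5.12% and 2.44% of all tested genes. Total-fragment scaling gave 1 and 7, against 4.39% and 3.83%. Psmd5 changed by -0.28 (SE 0.048, adjusted p = 0.00841), at 11.6 to 12.3 FPKM against 14.3 to 15.4 in mESC_control, and this was the call that held in every alternative. The lower genes also included Psma8, at -0.22 (SE 0.054, adjusted p = 0.0322), the scaffold Psmd1, at -0.22 (SE 0.046, adjusted p = 0.0181), and Psmd14, at -0.19 (SE 0.051, adjusted p = 0.0432). Psmd1 was at 39.5, 42.7 and 40.5 FPKM in mESC_control, 36.6, 34.2 and 34.3 in mESC_OGTi, 21.9, 22.6 and 22.4 in RA_control, and 20.3, 20.3 and 19.2 in RA_OGTi. Psmd14 was at 39.8, 45.3 and 41.7 FPKM in mESC_control, 38.7, 35.8 and 36.1 in mESC_OGTi, 23.1, 23.6 and 23.4 in RA_control, and 22.2, 21.2 and 21.8 in RA_OGTi. The inhibitor-treated mESC libraries of both lay under those of mESC_control. Psmg2 and Psmd6 changed by -0.19 (adjusted p = 0.0235) and -0.18 (adjusted p = 0.0431).

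Psme1 was the gene called higher, by 0.28 (SE 0.074, adjusted p = 0.0402), with 32.6 to 33.9 FPKM against 26 to 28.2. Its call was lost on leaving out any 1 of the 6 libraries, which gave adjusted p of 0.0724 to 0.129, as were those of Psma8 and, for all but mESC_OGTi replicate 1, Psmd6. Without mESC_control replicate 2, or mESC_OGTi replicate 2 or 3, 1 gene was lower, and without mESC_control replicate 1 or 3 the number was 3. The cutting subunits Psmb5, Psmb6 and Psmb7 differed by 0.14 (adjusted p = 0.458), -0.0093 (adjusted p = 0.96) and -0.052 (adjusted p = 0.715), with 95% intervals of -0.09 to 0.37, -0.18 to 0.16 and -0.21 to 0.10. Psmb10 differed by 0.040 (adjusted p = 0.849) and Psmb9 by 0.14 (adjusted p = 0.436).

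**Figure D5:**
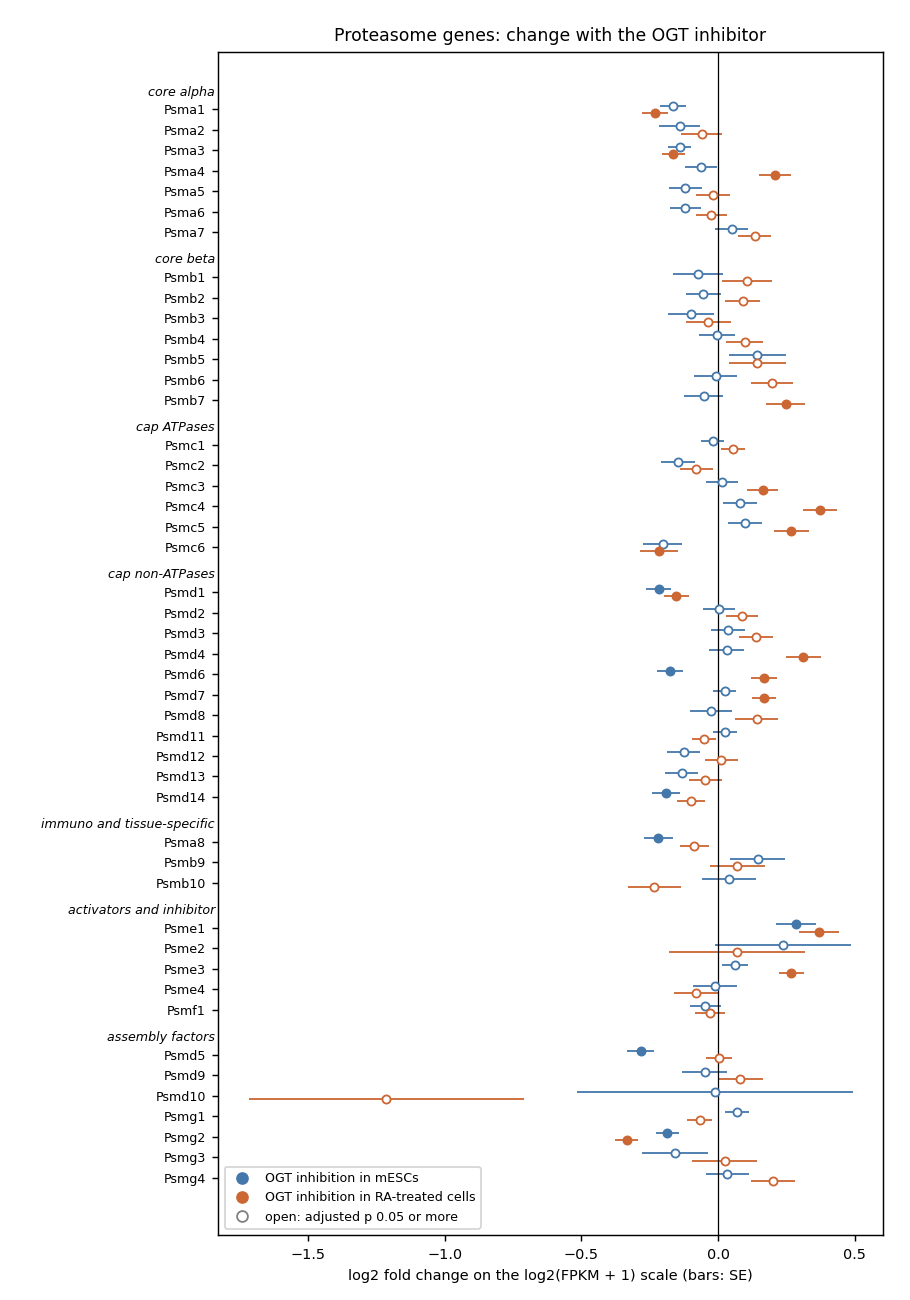
Change with the OGT inhibitor for the 46 tested proteasome genes, without RA and with it, on the log2(FPKM + 1) scale (x axis; points are limma estimates from 3 libraries a group and bars their SE; filled points have an adjusted p under 0.05). Called changes lie between -0.33 for Psmg2 and 0.37 for Psmc4, and the wide bar is that of Psmd10.

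In RA-treated cells proteasome genes were called in both directions with the inhibitor, within the alpha ring and within the cap alike. Between RA_control and RA_OGTi 10 of 46 genes were higher (21.7%) and 5 lower (10.9%). These shares were near those of all tested genes, at 17.6% and 14.3%. The median changes were 0.061 for the 46 genes and 0.0023 for all. These shares and medians are those of the deposited scaling. Total-fragment scaling gave 14 higher and 3 lower of the 46, against 19.7% and 13.8% of all tested genes. TPM gave 18 and 2 of the 46, against 21.5% and 10.7%. Without RA_OGTi replicate 3 the counts were 6 and 3, and without RA_control replicate 1 again 6 were higher. The ATPases Psmc4 and Psmc5 were higher by 0.37 (SE 0.062, adjusted p = 0.00106) and 0.27 (SE 0.063, adjusted p = 0.00746), and Psmc3 by 0.16 (adjusted p = 0.0482). Psmc4 stood at 49.8 to 59.2 FPKM in RA_OGTi and 40.5 to 44.3 in RA_control, both far under the mESC levels given above. Psmd4 was at 101, 109 and 108 FPKM in mESC_control, 105, 109 and 111 in mESC_OGTi, 68.2, 67 and 75.3 in RA_control, and 83.8, 82.9 and 95.4 in RA_OGTi. This ubiquitin receptor was higher by 0.31 (SE 0.064, adjusted p = 0.00379). Psme1 was higher by 0.37 (SE 0.074, adjusted p = 0.00326) and Psme3 by 0.27 (SE 0.047, adjusted p = 0.00144). These 5 calls, of Psmc4, Psmc5, Psmd4, Psme1 and Psme3, held in every alternative run.

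Further genes higher with the inhibitor after RA were Psmb7, at 0.25 (adjusted p = 0.0215), Psma4, at 0.21 (adjusted p = 0.0185), Psmd6, at 0.17 (adjusted p = 0.0191), and Psmd7, at 0.17 (adjusted p = 0.0109). Psmg2 changed by -0.33 (SE 0.042, adjusted p = 0.000195), and its 3 RA_OGTi libraries, at 27.9 to 28.9 FPKM, were the lowest of all. Psma1 was at 58.9, 61.7 and 57.9 FPKM in mESC_control, 51.4, 53.3 and 54.2 in mESC_OGTi, 39.9, 42.5 and 44.3 in RA_control, and 35.7, 34.8 and 36.9 in RA_OGTi. This alpha gene changed by -0.23 (SE 0.048, adjusted p = 0.00397), and its 4 groups did not overlap. Psma3 was at 33.2, 32.4 and 33.5 FPKM in mESC_control, 30.7, 29.5 and 29.5 in mESC_OGTi, 23.9, 23.7 and 25.5 in RA_control, and 21.3, 21.2 and 22.4 in RA_OGTi. Psmc6 was at 26.3, 29.9 and 28.8 FPKM in mESC_control, 24.5, 25.3 and 23.5 in mESC_OGTi, 23.1, 26.8 and 23.5 in RA_control, and 21, 22.4 and 19.4 in RA_OGTi. Psma3 and Psmc6 changed by -0.16 (adjusted p = 0.0127) and -0.22 (adjusted p = 0.036), and Psmd1 by -0.15 (adjusted p = 0.0241). The calls of Psma3, Psmc6 and Psmd1 were lost with TPM scaling, and those of Psmb7, Psma4, Psmd6, Psmc3, Psmc6 and Psmd1 without RA_OGTi replicate 3, among other libraries. Psmd10 differed by -1.21 (adjusted p = 0.0891), and without RA_control replicate 3 it was called lower, at -1.82 (adjusted p = 0.00929). Psmb5 and Psmb6 differed by 0.14 (adjusted p = 0.324) and 0.20 (adjusted p = 0.0752), Psmb10 by -0.23 (adjusted p = 0.0927) and Psmb9 by 0.070 (adjusted p = 0.639). Psmb6 was called higher in 6 of 16 alternatives, among them TPM, at 0.24 (adjusted p = 0.0023), total-fragment scaling, at 0.21 (adjusted p = 0.0186), and the replicate block (adjusted p = 0.039). Without RA_control replicate 2 Psmb10 was called lower, at -0.36 (adjusted p = 0.00511).

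The difference of the inhibitor's effects, RA-treated minus undifferentiated, was tested in the same fit. Of the 46 genes 2 were called higher (4.35%) and 0 lower. The higher share was near the 3.9% of all tested genes, of which 3.79% were lower. At an unadjusted p under 0.05, 8 were positive and 1 negative, and the shares of all tested genes were not computed. With limma-voom 4 were called higher and 0 lower, against 3.91% and 4.28% of all tested genes. The medians were 0.094 for the 46 genes and 0.0041 for all. Psmd6 went from -0.18 with the inhibitor in mESCs to 0.17 after RA, a difference of 0.34 (SE 0.067, adjusted p = 0.0123). Psmd5 went from -0.28 to 0.0029, a difference of 0.29 (SE 0.068, adjusted p = 0.0282). The difference for Psmc4 was 0.29 (adjusted p = 0.0654), for Psma4 0.27 (adjusted p = 0.0691), for Psme3 0.21 (adjusted p = 0.0832), for Psmd4 0.28 (adjusted p = 0.0851) and for Psmb7 0.30 (adjusted p = 0.0968). For Psme1 it was 0.085 (adjusted p = 0.679), with a 95% interval of -0.15 to 0.32. Total-fragment scaling gave 8 higher genes of the 46, against 5.84% of all tested genes, and TPM 9, against 4.97%. Without RA_control replicate 2, Psmd5 was no longer called and Psmb10 was called lower, at -0.40 (adjusted p = 0.0375).

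Partners of the proteasome outside the named families were described with lists chosen with earlier results of these data known. These lists, like those of control genes and antigen presentation, were tested with the deposited scaling only. Total-fragment and TPM scaling shifted the all-gene median with RA from -0.035 to 0.15 and 0.18, and their effect on the lists was not tested. Of 17 partners, 10 were lower (58.8%) and 3 higher (17.6%) with RA, against 37.2% and 33.7% of all tested genes, with medians of -0.20 and -0.035. The maturation factor Pomp, which closes the assembly of the core, changed by -0.87 (SE 0.066, adjusted p = 2.99e-07), from a mean of 24.8 FPKM in mESC_control to 13.1 in RA_control. The ubiquitin receptor Adrm1 changed by -0.51 (SE 0.048, adjusted p = 1.99e-06). The shuttle proteins Ubqln4 and Rad23b changed by -1.01 (adjusted p = 9.93e-09) and -0.72 (adjusted p = 1.3e-08). Of 11 genes for ubiquitin supply and extraction 5 were lower (45.5%, near the 37.2% of all tested genes) and 2 higher, with a median of -0.16, among them the activating enzyme Uba1 at -0.51 (adjusted p = 4.14e-05). With the inhibitor in mESCs, 1 of the 17 partners was called (5.88%, against 4.6% of all tested genes higher), Ubqln4 at 0.20 (adjusted p = 0.0358). With the inhibitor after RA 3 of the 17 were lower (17.6%) and 1 higher (5.88%), against 14.3% and 17.6% of all tested genes. The changes ranged from -0.27 to 0.28, and Txnl1 and Uchl5 were lower, at -0.27 (adjusted p = 0.00553) and -0.25 (adjusted p = 0.00569).

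Among 15 genes that control proteasome genes, 14 were tested. Nfe2l1, the factor that raises proteasome genes when degradation is impaired, had mean FPKM of 53.8 in mESC_control, 67.5 in mESC_OGTi, 62.3 in RA_control and 76.4 in RA_OGTi. It was higher with the inhibitor in mESCs by 0.32 (SE 0.041, adjusted p = 0.00231) and after RA by 0.29 (SE 0.041, adjusted p = 0.000413), and higher with RA by 0.21 (SE 0.041, adjusted p = 0.000743). Its partner Mafg was higher with the inhibitor in mESCs by 0.25 (adjusted p = 0.0156). In this list 3 genes were higher and 9 lower with RA, against 33.7% and 37.2% of all tested genes. With the inhibitor 4 were higher and 1 lower in mESCs, against 4.6% and 3.18%, and 5 higher and 2 lower after RA, against 17.6% and 14.3%. The CCAAT-binding subunits Nfyc and Nfyb changed with RA by -1.05 (adjusted p = 4.86e-07) and -0.73 (adjusted p = 3.34e-07), and after RA Nfyb changed with the inhibitor by -0.55 (adjusted p = 6.11e-05) and Keap1, which restrains Nfe2l2, by 0.49 (adjusted p = 0.000158). For Nfyb the difference of the inhibitor's effects was -0.32 (adjusted p = 0.0318).

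The genomic surroundings varied among the genes. A protein-coding neighbour in divergent orientation started within 1000 bases of 7 of the 49 (14.3%), against 10.2% of 12322 tested protein-coding genes. The pairs were Psma2 with Mrpl32, Psma7 with Ss18l1, Psmc2 with Dnajc2, Psmc5 with Ftsj3, Psmd10 with Atg4a, Psme2 with Rnf31 and Psmg2 with Cep76, with 32 to 595 bases between the starts. Exons on the opposite strand overlapped 11 of the 49 genes, of which Psmd9 alone by over 25% of its exon bases.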

How the data were processed

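RNA of 12 libraries of R1 mouse embryonic stem cells, 3 in each of 4 groups, was extracted with TRIzol and made into libraries with an NEBNext Ultra RNA kit, per the labels' protocols. Per the submitters' processing notes, HISAT2 2.0.5 and featureCounts 1.5.0 were used on GRCm38. No source used here states the strand setting, the filters or how FPKM was computed. The authors deposited FPKM per gene for 54555 genes, 754 of them without a symbol. Multiplied by gene length, 100% of the values came out as whole fragments within 0.02, with totals of 15553627 to 17833464 per library. The deposited FPKM imply library sizes that differ from these totals, the ratio of fragments to implied size being 1.06 to 1.11 for mESCs and 0.883 to 0.934 after RA.

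Values were tested as log2(FPKM + 1), which understates changes of low genes, in limma 3.58.1 (R 4.3.3) with a variance trend. A single fit held all 12 libraries and 14866 genes, those with 3 or more libraries at 1 FPKM or above. All tests are two-sided, with a threshold of 0.05 on p-values adjusted by Benjamini-Hochberg over all genes tested. Intervals are at 95%. The filter left out Psmb8, Psmb11 and Psme2b. Full values were given for catalytic, immune and tissue-specific subunits, activators, assembly factors, Psma7 and Psmc1, and for the 4 largest called rises and falls in each comparison. The genes and lists were chosen with earlier results of these data known. The alternatives used a pseudocount of 0.1, all genes, a mean of 5 FPKM, median-of-ratios, total-fragment and TPM scaling, no variance trend, the replicate block, limma-voom on recovered fragments, the groups compared only, and leaving out each library. The scripts were tested on simulated data. Promoters came from RefSeq (GRCm38.p6) and gene overlaps from GENCODE M21, with Python 3.11.15, pandas 2.3.3, numpy 2.4.6 and matplotlib 3.10.9.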

Additional observations from a re-analysis of the deposited data

Results flagged for a closer look

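The inhibitor's effect differed between the states for 2 of the 46 tested genes by the test of the difference itself. For Psmd6, a subunit of the lid, the difference (RA-treated minus undifferentiated) was 0.34 on the log2(FPKM + 1) scale (adjusted p = 0.0123 with limma), and the call held under every alternative run. For Psmd5, a chaperone of the ATPase ring, it was 0.29 (adjusted p = 0.0282), and the call was lost in 7 of 21 alternatives, each of them leaving out 1 library, with adjusted p over all alternatives of 0.0189 to 0.0738. The 7 libraries were mESC_control replicates 1 and 2, mESC_OGTi replicate 2, RA_control replicates 1 and 2, and RA_OGTi replicates 1 and 3. These 2 genes were 4.35% of the 46, near the 3.9% of all tested genes called in this direction with the deposited scaling. With total-fragment scaling 8 of the 46 were called, against 5.84% of all tested genes, and with TPM 9, against 4.97%.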

How the results depend on the processing

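Of 3882 values of single genes under the alternatives, 3657 kept their side of the threshold and direction, 91 of them with a change of sign between values that both missed the threshold. Another 142 lost a call, 65 gained one and 18 turned. Those that turned did so with TPM and with total-fragment scaling: with RA, Psmd3 was then at 0.059 and 0.052, Psmd8 at 0.041 and 0.034, and Psmc6 at 0.027 and 0.019. With RA in inhibitor-treated cells, Psmd2 was at 0.091 and 0.077, Psmd3 at 0.20 and 0.18, Psmd8 at 0.24 and 0.23, Psma4 at 0.26 and 0.24, Psmc6 at 0.046 and 0.032, and Psmd5 at 0.23 and 0.21.

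With the inhibitor in mESCs, 0 genes were higher without a filter or without the variance trend, and 3 were lower without a filter, 1 with TPM and 2 from the groups compared only. With RA, and with RA in inhibitor-treated cells, 1 was higher with the stricter filter. That filter left 43 of the genes to test and removed Psmb9 and Psmd10, whose means were under 5 FPKM. With RA in inhibitor-treated cells 11 were higher with TPM and 10 with total fragments, against 45.1% and 44.9% of all tested genes. With the inhibitor after RA, 18 were higher with TPM and 6 from the groups compared only, against 21.5% and 15.2% of all tested genes. Then 2, 3 and 2 were lower with TPM, total fragments and the groups compared only, against 10.7%, 13.8% and 12.5%. For the difference of effects 9, 8 and 4 were higher with TPM, total fragments and limma-voom, against 4.97%, 5.84% and 3.91% of all tested genes. The cause of the other differences was not tested.

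Leaving out 1 library gave 0 higher and 1 to 4 lower genes with the inhibitor in mESCs, 1 to 2 and 36 to 40 with RA, 6 to 14 and 3 to 5 with the inhibitor after RA, 1 to 3 and 33 to 35 with RA in inhibitor-treated cells, and 1 to 3 and 0 to 1 for the difference.

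Same-numbered libraries deviated together with correlations of -0.021 to 0.12, 2 of 18 over 0.1, and the main fit did not pair them. Both values over 0.1 were of RA_control with RA_OGTi, at 0.12 for replicates 2 and 0.12 for replicates 3. For replicates 1 of these groups the value was -0.0022. Replicates 2 were lowest for 22 of the 31 constitutive genes in RA_control and 25 in RA_OGTi. Replicates 3 were highest for 25 in both groups. Pairing of these groups was not tested beyond the replicate block. With the replicate number as a block, 4 genes were higher in the difference of effects. The block gave 1 higher and 5 lower genes with the inhibitor in mESCs, 3 and 40 with RA, 11 and 5 with the inhibitor after RA, and 2 and 35 with RA in inhibitor-treated cells. Depth limits Psmd10, with 7 fragments in its lowest library, and Psmb8, with 2.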
